A study of Mus musculus with 4 samples.

Results

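The tissue inhibitors of metalloproteinases (TIMPs) were followed in cultured mouse endothelial cells given lipopolysaccharide (LPS), an outer membrane molecule of Gram-negative bacteria. The members were chosen by name, as all spots whose single gene symbol in the array's annotation was Timp1, Timp2, Timp3 or Timp4, which gave 10 of 32448 spots, 5 oligonucleotides and 4 of 11138 named genes. The cells were SVEC cells, an established mouse endothelial line, so the data describe this line in culture. Amplified RNA of LPS-treated and of control cells was hybridised together with 2 dyes, after 24 h on 2 arrays and after 4 h on the other 2. Within a time, treated RNA carried Cy5 on the first array, and the second array was a dye reversal with treated RNA in Cy3. Labels of 3 arrays give the dose as 50 ng/ml. No separate cultures are named, so a time counts as 1 RNA pair, and each SD given here is the spread between those 2 arrays only. With 1 RNA pair per time there is no test, and no p-value is given. Whether both times shared control RNA is not known.

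TIMPs are small secreted proteins that plug the zinc-containing active site of metalloproteinases, the enzymes that cut extracellular matrix and shed proteins from cell surfaces. Timp1 is the member best known to be induced by inflammatory signals. Timp2 is made more constantly and also helps Mmp14 to activate pro-Mmp2. Timp3 stays bound to the matrix, inhibits the sheddase Adam17 and can block the VEGF receptor Kdr, and Timp4 is known mainly from heart and a few other tissues.

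Every value below is a log2 ratio of LPS over control, so 1 means 2-fold higher in LPS-treated cells, relative to the median spot of the same array. The reversed arrays were turned in sign. The direction is likely rather than stated: the labels give channel 2 and, on unreversed arrays, Cy5 to the treated RNA, and a table made as Cy3 over Cy5 would carry the opposite signs. The rule for a gene called higher or lower was that the mean of a time was at least 2-fold and each array at least 1.5-fold the same way. The family was selected on its ratios at both times, Timp1 as late and Timp3 as early, so their values describe these arrays and support nothing further.

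Relative to the median spot, Timp1 was higher in LPS-treated cells at both times, and more so at 24 h. Timp3 was higher at 4 h and lay slightly below the median spot at 24 h. Timp2 and Timp4 stayed within 1.5-fold of the control at both times on average. By count, 1 of 4 members was higher at 24 h, where 1.68% of all genes were, and 2 of 4 were higher at 4 h, where 8.74% were. None of the 4 was lower, where 0.799% of genes were at 24 h and 5.77% at 4 h. The 4 h calls depend on the centring: with arrays centred on abundant transcripts, Timp1 (-0.78, turned in sign) and Timp3 (0.95) were no longer past the rule at 4 h, and Timp2 (-2.28) and Timp4 (-2.34) were lower by it. The median over the members was 0.18 at 24 h and 0.83 at 4 h, beside 0.022 and -0.0013 over all genes.

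The promoter windows of the 2 genes that passed the rule are shown because their time courses differ. They come from RefSeq on GRCm38.p6, with 250 bases before and 50 after the gene start, and all 4 members had a window. Capitals mark matches, on either strand, to GGGNNNNNCC, a loose form of the NF-kB site, and to TGAGTAA, a variant of the AP-1 site that was added after the Timp1 window had been read.
Timp1, chrX:20869916-20870215, plus strand: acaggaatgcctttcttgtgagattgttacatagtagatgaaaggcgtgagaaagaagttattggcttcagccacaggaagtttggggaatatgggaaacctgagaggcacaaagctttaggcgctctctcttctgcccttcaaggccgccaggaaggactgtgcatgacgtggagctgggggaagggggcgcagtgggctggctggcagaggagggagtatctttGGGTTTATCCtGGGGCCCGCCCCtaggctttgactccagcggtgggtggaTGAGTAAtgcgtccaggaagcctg
Timp3, chr10:86300162-86300461, plus strand: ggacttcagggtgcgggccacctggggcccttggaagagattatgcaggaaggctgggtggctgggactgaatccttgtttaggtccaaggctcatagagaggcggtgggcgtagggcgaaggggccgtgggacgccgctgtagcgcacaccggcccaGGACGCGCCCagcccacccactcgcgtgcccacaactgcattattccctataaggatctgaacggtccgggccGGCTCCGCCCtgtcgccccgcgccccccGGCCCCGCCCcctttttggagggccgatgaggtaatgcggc
TGAGTAA lay in the Timp1 window at bases 27 to 33 after the gene start and in no other member's window; 2.68% of 32851 windows held it. GGGNNNNNCC matched 5 times in Timp1 and 3 times in Timp3, but also in Timp2 and Timp4 and in 50.8% of all windows. Some Timp1 matches overlap each other, and that at bases -12 to -3 counts on both strands, so 5 is not its number of separate sites. The plain AP-1 letters TGANTCA (7.81% of windows), the STAT letters TTCNNNGAA (8.30%) and TATAAA (13.6%) were in none of the 4 windows. GGGCGG, the core of the Sp1 site, occurred once in Timp1 and 2 times in Timp3, each time inside a GGGNNNNNCC match, once in Timp2 outside its GGGNNNNNCC match, and in 35.7% of windows. The Timp3 window had a GC content of 67% and that of Timp1 55%, against a median of 52.7% over all windows. These matches are descriptions of letters only.

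Timp1, the inflammation-induced inhibitor, was measured with 2 different oligonucleotides, each spotted in duplicate. At 24 h its ratio was 3.85 with LPS in Cy5 and 2.58 with LPS in Cy3, a mean of 3.21 ± 0.90 (SD, 2 arrays) or 9.28-fold. At 4 h the arrays gave 1.83 and 1.34 in the same order, a mean of 1.58 ± 0.35 or 2.99-fold. Both 24 h arrays therefore lay above both 4 h arrays, and the word late covers Timp1 only in part, since relative to the median spot it was already past the 2-fold rule at 4 h. Counted from the highest ratio in the likely direction, its 24 h mean ranked 2 among 11138 genes, but its single arrays ranked 7 with LPS in Cy5 and 130 with LPS in Cy3. With all signs turned, the rank of that mean would be 11137. At 4 h its mean ranked 662 and its arrays 701 and 952.

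The oligonucleotides of Timp1 pointed the same way on every array but differed in size and in their dependence on the dye. The second averaged 3.93 and 3.52 on the 24 h arrays with LPS in Cy5 and in Cy3. At 4 h it averaged 1.96 and 1.90 in the same order, so its averages differed little with the dye. Its duplicate spots on the 4 h array with LPS in Cy3 lay far apart, at 1.24 and 2.55. The first gave 3.77 and 1.64 at 24 h, and 1.69 and 0.78 at 4 h, so its ratio was much lower wherever LPS was in Cy3. Of the 8 single spot values at 24 h, all 8 were at least 2-fold, from 1.62 to 4.28. Of the 8 at 4 h, 8 were above 0 and 6 at least 2-fold, from 0.73 to 2.55. The spread of Timp1 between its 24 h arrays was above that of 87.7% of genes.

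**Figure D1:**
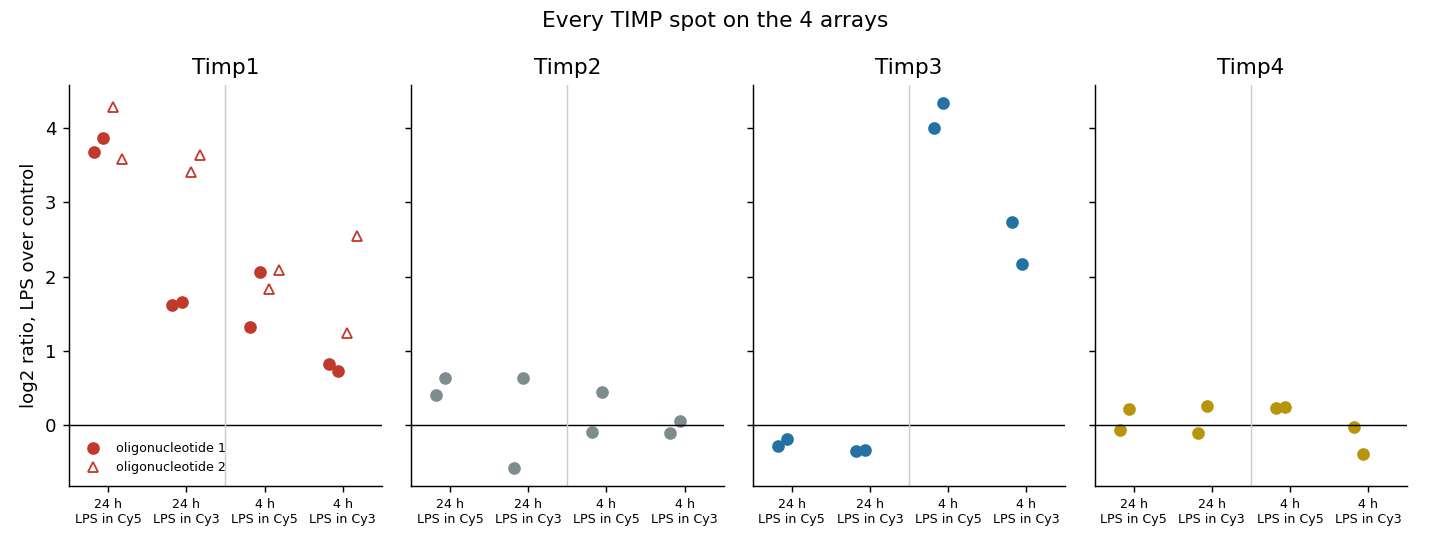
Log2 ratio of LPS over control (vertical axis) of each TIMP spot on the 4 arrays (horizontal axis), 24 h left of 4 h in each panel; filled circles are the first oligonucleotide and open triangles the second, which Timp1 alone has. Relative to the median spot of each array, all Timp1 spots lie above 0 at both times, whereas the Timp3 spots lie at 2.18 to 4.33 at 4 h and below 0 at 24 h.

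Timp3, the matrix-bound inhibitor, had the opposite order of times. At 24 h its ratio was -0.23 with LPS in Cy5 and -0.34 with LPS in Cy3, a mean of -0.28 ± 0.08 (SD, 2 arrays). At 4 h the arrays gave 4.16 and 2.45, a mean of 3.31 ± 1.21 or 9.90-fold. Its 4 spot values ran from -0.34 to -0.18 at 24 h and from 2.18 to 4.33 at 4 h, so the times did not overlap. A position above 0 on both 4 h arrays and below 0 on both 24 h arrays was shared by 6.55% of all genes. Counted from the highest in the likely direction, its mean ranked 8550 of 11138 genes at 24 h and 94 at 4 h, where its arrays ranked 84 and 314; with all signs turned the means would rank 2589 and 11045. Timp3 rests on 1 oligonucleotide in duplicate spots, so no other probe of the gene checks it. The gap between its 4 h arrays was wide, above that of 90.2% of genes, with the higher value where LPS was in Cy5.

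Timp2, the more constantly made member, lay at 0.52 and 0.04 on the 24 h arrays with LPS in Cy5 and in Cy3, a mean of 0.28 ± 0.34. At 4 h it lay at 0.18 and -0.02, a mean of 0.08 ± 0.14. Its duplicate spots disagreed in sign on the 24 h array with LPS in Cy3, at -0.57 and 0.64. They also did so on both 4 h arrays, at -0.08 and 0.44 with LPS in Cy5 and at -0.10 and 0.06 with LPS in Cy3. Timp4 lay at 0.085 and 0.083 at 24 h, a mean of 0.084 ± 0.0016, and at 0.24 and -0.20 at 4 h, a mean of 0.021 ± 0.32. The close match of the Timp4 arrays at 24 h covers spots that themselves ran from -0.10 to 0.26. Relative to the median spot, the 4 h arrays of both genes straddled 0, and neither time could be told from the control beyond the spread of spots and arrays. With centring on abundant transcripts, Timp2 (-2.28) and Timp4 (-2.34) were lower by the rule at 4 h. The table holds no intensities, so a faint spot and an unchanged transcript cannot be told apart for Timp2 and Timp4. The same limit holds for the genes near 0 in the gene lists below, the matrix metalloproteinases among them.

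**Figure D2:**
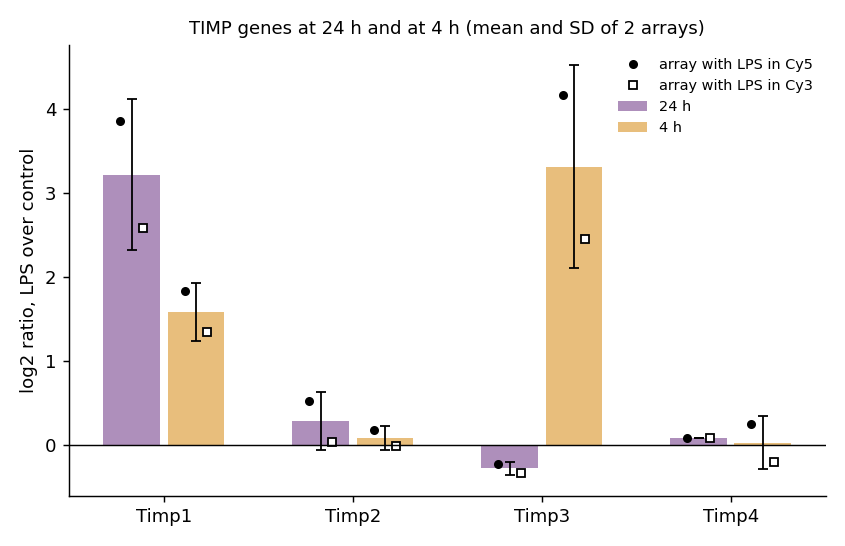
Log2 ratio of LPS over control (vertical axis) of the 4 TIMP genes at 24 h (left bars) and 4 h (right bars); bars are means and error bars SDs of 2 arrays, with the array with LPS in Cy5 as a dot and the one with LPS in Cy3 as a square. Timp1 averages 3.21 at 24 h and 1.58 at 4 h, Timp3 -0.28 at 24 h and 3.31 at 4 h, and Timp2 and Timp4 lie near 0.

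Timp3 was the lowest member at 24 h and the highest at 4 h, and the other members kept their order. At 24 h Timp1 stood above Timp3 by 4.07 with LPS in Cy5 and by 2.92 with LPS in Cy3, a mean difference of 3.497 ± 0.82. At 4 h Timp1 minus Timp3 was -2.34 and -1.12, a mean of -1.73 ± 0.86. At 24 h the order ran Timp1, Timp2, Timp4 and Timp3, and at 4 h Timp3, Timp1, Timp2 and Timp4. Timp2 and Timp4 did not differ beyond their spread, with Timp2 minus Timp4 at 0.20 ± 0.34 at 24 h and 0.058 ± 0.17 at 4 h. Timp3 minus Timp2 was -0.75 and -0.38 at 24 h and 3.98 and 2.47 at 4 h.

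Between the times, Timp1 was 1.63 ± 0.96 higher at 24 h than at 4 h, or 3.10-fold, and Timp3 was lower at 24 h, at -3.59 ± 1.21. The SD of a difference combines those of both times. A difference counted when the means were at least 2-fold apart and both arrays of a time lay beyond both of the other, which held for 8.23% of genes upward at 24 h and for 9.99% downward. For Timp1 this rests on the 24 h array with LPS in Cy5: without it the difference was 0.9989, just short of the rule. With the first Timp1 oligonucleotide alone the difference was 1.47, but the arrays of the times overlapped. Timp2 and Timp4 gave differences of 0.20 ± 0.37 and 0.062 ± 0.32, not past the rule. Higher at both times were 46 genes (0.413%), and only Timp1 and Saa3, an acute phase serum amyloid, were also past the difference rule upward at 24 h (0.018%). With exact zeros as not measured, Saa3 lay at 2.60 at 24 h and 1.85 at 4 h, less than 2-fold apart. Timp3 was among 740 genes (6.64%) that were higher at 4 h and past the difference rule downward at 24 h.

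Abundant transcripts were also high at 4 h. Of 21 measured abundant transcripts, 14 were higher, Gapdh among them, and 1 lower at 4 h, where 8.74% and 5.77% of all genes were. Actb, also listed, had 4 h arrays of 3.52 and -0.014 and was not past the rule. At 24 h 1 was higher, beside 1.68% of all genes, and the list median was 0.067. At 4 h the list median was 2.17. The 4 h value of Timp1 lay below that median and that of Timp3 above it. When each array was centred on these transcripts, Timp1 lay at -0.78 and Timp3 at 0.95 at 4 h, so neither was past the rule. The 24 h values hardly moved, with Timp1 at 3.16. Over all genes this centring gave 49 higher and 9975 lower at 4 h, in place of 973 and 643. The part of abundance in the 4 h values was not tested.

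**Figure D3:**
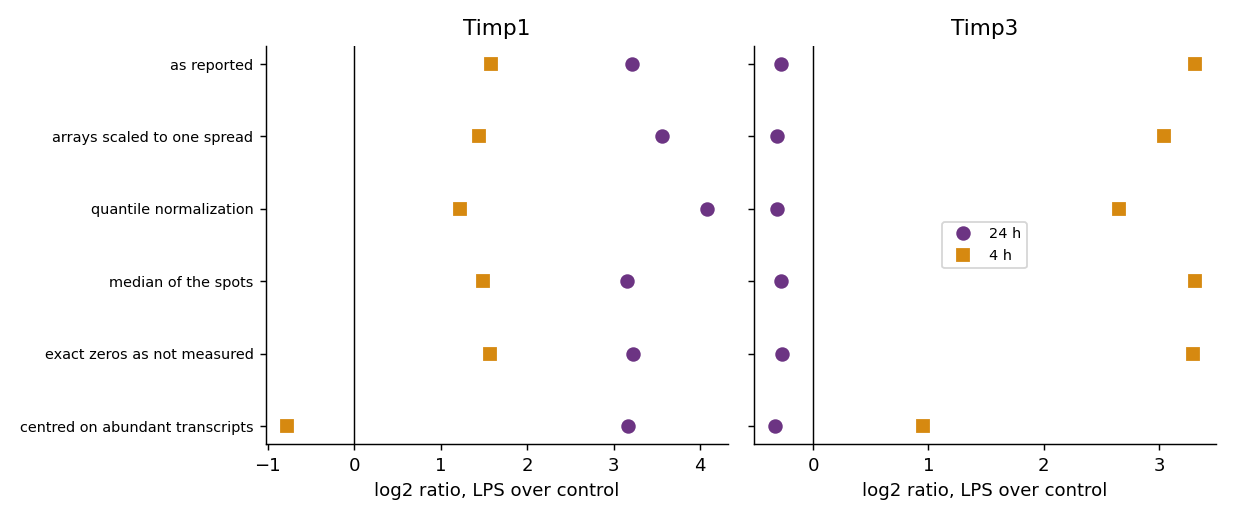
Log2 ratio of LPS over control (horizontal axis) of Timp1 and Timp3 at 24 h (circles) and 4 h (squares) under the processing reported and 5 alternatives (vertical axis). The 24 h values keep their sign throughout, and centring on abundant transcripts puts the 4 h value of Timp1 at -0.78 and that of Timp3 at 0.95.

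By likeness over the 4 array values, measured as Euclidean distance on the log2 scale, the 5 genes nearest to Timp1 were Ifi47 (1.01), Saa3 (1.11), Il33 (1.13), Rsad2 (1.56) and Usp18 (1.58). Relative to the median spot, all of them were higher at both times (at 4 h their signs, too, turned with centring on abundant transcripts), at 2.17 to 2.59 on average at 24 h and 1.29 to 1.69 at 4 h, below Timp1 at 24 h. The 5 genes nearest to Timp3 lay much closer to it: Aldh1a1 (0.45), Rbm3 (0.46), Nptn (0.49), Bnip2 (0.50) and the ribosomal protein gene Rps16 (0.53). They lay at -0.54 to 0.078 at 24 h and at 3.02 to 3.42 at 4 h, and none stayed past the rule at 4 h with centring on abundant transcripts. No gene lay within a distance of 1 of Timp1.

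**Figure D4:**
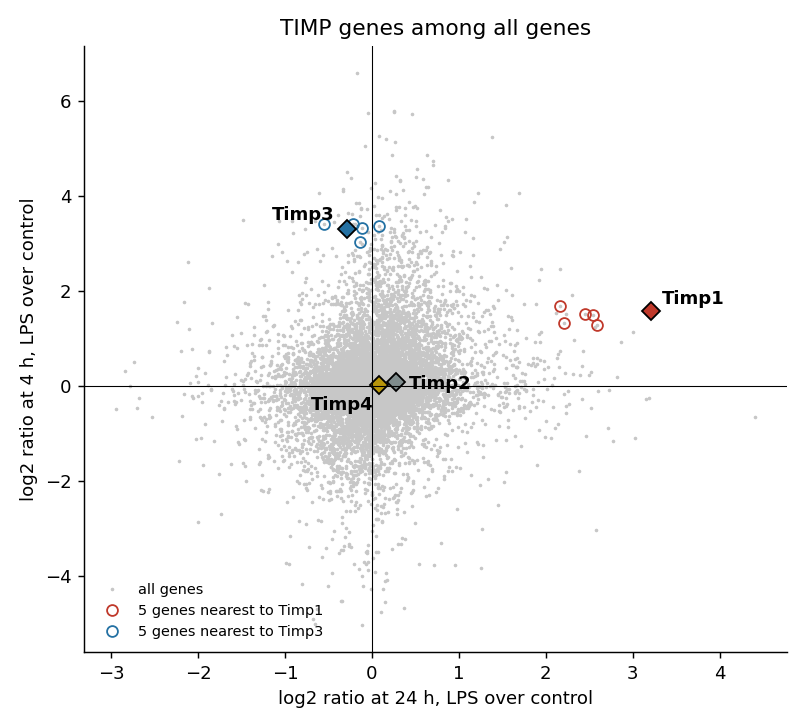
Log2 ratio of LPS over control at 24 h (horizontal axis) against that at 4 h (vertical axis) for 11138 genes (grey dots), the 4 TIMP genes (diamonds) and the 5 genes nearest to Timp1 and to Timp3 over the 4 arrays (open circles). Timp1 lies far to the right with few genes near it, Timp3 high on the vertical axis, and Timp2 and Timp4 at the centre.

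Of 18 measured genes for matrix metalloproteinases, the enzymes that TIMPs inhibit, 0 were higher or lower at 24 h, beside 1.68% and 0.799% of all genes, and their median was -0.043. At 4 h 1 was higher, where 8.74% of all genes were, with a list median of -0.13. That gene was Mmp14, the membrane-bound partner of Timp2, at -0.015 ± 0.49 at 24 h and 1.253 ± 0.78 at 4 h, where its arrays gave 1.81 and 0.70. This call was lost with arrays scaled to one spread (1.17) and after quantile normalization (0.94). Its substrate Mmp2, a gelatinase, lay at -0.21 ± 0.09 at 24 h and 0.18 ± 0.18 at 4 h. The stromelysin gene Mmp3 lay at 0.18 ± 0.29 and 0.17 ± 0.10, and the gelatinase gene Mmp9 at -0.07 ± 0.01 and -0.36 ± 0.50, at 24 h and 4 h. Mmp9 was measured with 2 oligonucleotides, and by the median of its spots it lay at 0.135 ± 0.19 at 24 h. With centring on abundant transcripts, Mmp2 (-2.18), Mmp3 (-2.19) and Mmp9 (-2.71) were lower by the rule at 4 h, and so was Mmp14 (-1.10). Relative to the median spot, the means of all these metalloproteinase genes spanned -0.54 to 0.39 at 24 h and -0.98 to 1.253 at 4 h.

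Many ADAM genes encode membrane-bound sheddases. Among 10 ADAM genes measured, 1 was higher at 24 h, where 1.68% of all genes were, and 3 at 4 h, where 8.74% were. The list medians were -0.014 and 0.13. Adam9 was higher at both times, at 1.16 ± 0.33 at 24 h and 1.54 ± 0.23 at 4 h. Without the 24 h array with LPS in Cy5 its 24 h value was 0.925, short of the rule. Adam17, the TNF-releasing sheddase that Timp3 inhibits, lay at 0.26 ± 0.19 at 24 h and was higher at 4 h, at 1.18 ± 0.41 with arrays at 1.48 and 0.89; the call was lost after quantile normalization (0.92). Adam15 lay at -0.50 ± 1.31 at 24 h and was higher at 4 h, at 1.78 ± 1.14. Without the 4 h array with LPS in Cy5 its 4 h value was 0.97, short of the rule. Adam10, the other main sheddase, lay at -0.15 ± 0.05 at 24 h and -0.28 ± 0.01 at 4 h. Of 19 listed ADAMTS genes, whose products are secreted matrix proteases, 3 were measured and none passed the rule; Adamts1 lay at -0.07 ± 0.01 at 24 h and 0.55 ± 0.12 at 4 h. With centring on abundant transcripts, the 4 h ratios of Adam9, Adam15 and Adam17 turned in sign, and Adam17 (-1.17), Adam10 (-2.64) and Adamts1 (-1.80) were lower by the rule.

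Of 8 measured genes for proteins that bind TIMPs or relay their signals, 0 were higher at 24 h and 1 at 4 h. Over all genes the shares were 1.68% and 8.74%. The list medians were 0.20 and 0.42. The gene called at 4 h was Itgb1, the integrin beta 1 subunit, at 0.31 ± 0.45 at 24 h and 3.77 ± 0.94 at 4 h. Cd63, a tetraspanin that binds Timp1, lay at -0.011 ± 0.41 at 24 h; at 4 h its arrays gave 3.97 and 0.53, so its mean of 2.25 ± 2.44 was not past the rule. Lrp1, an endocytic receptor that takes up TIMPs, lay at 0.29 ± 0.03 and 0.72 ± 0.46. Kdr, the VEGF receptor that Timp3 can block, lay at -0.06 ± 0.08 at 24 h and 0.25 ± 0.06 at 4 h. With centring on abundant transcripts, Itgb1 (1.41) stayed past the rule at 4 h, and Lrp1 (-1.64) and Kdr (-2.11) were lower by it.

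Of 14 other measured genes listed as regulators of matrix proteases, mostly inhibitors, 0 were higher or lower at 24 h, beside 1.68% and 0.799% of all genes, with a median of 0.011. At 4 h 1 was higher and 1 lower, where 8.74% and 5.77% of all genes were, with a list median of -0.017. Pcolce, an enhancer of procollagen processing, was higher at 1.08 ± 0.01 and Wfdc2, which has inhibitor-like domains, lower at -1.48 ± 0.90. The Pcolce call was lost with arrays scaled to one spread (0.97) and after quantile normalization (0.87), and with centring on abundant transcripts Pcolce (-1.28) was lower. Their 24 h means were 0.34 ± 0.12 for Pcolce and -0.95 ± 0.88 for Wfdc2. Reck, a membrane-bound inhibitor of metalloproteinases, lay at 0.15 ± 0.24 at 24 h and 0.0069 ± 0.08 at 4 h, and was lower at 4 h (-2.35) with that centring. Plasminogen activation is a protease system that can activate metalloproteinases. Of its 9 measured genes, 0 passed the rule at 24 h and 1 was higher at 4 h, where 8.74% of all genes were. This was Anxa2, a plasminogen-binding annexin, at 0.022 ± 0.19 at 24 h and 1.61 ± 1.01 at 4 h. Its 4 h ratio turned in sign with that centring (-0.75).

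Of 23 measured genes for matrix proteins, 1 was higher at 24 h, where 1.68% of all genes were, and 7 at 4 h, where 8.74% were. None was lower at either time, and the list medians were -0.098 and 0.52. Sparc, a collagen-binding matricellular protein, was higher at both, at 1.18 ± 0.19 at 24 h and 3.87 ± 1.73 at 4 h. Among those past the rule at 4 h and not at 24 h were the collagen genes Col3a1 at 3.05 ± 2.25, Col6a1 at 2.36 ± 0.05 and Col5a2 at 1.91 ± 0.88. The small proteoglycan genes Bgn and Dcn were also higher at 4 h, at 2.27 ± 0.97 and 1.70 ± 0.19. At 24 h these lay at 0.51 ± 0.25 for Col3a1, 0.29 ± 0.22 for Col6a1, 0.40 ± 0.33 for Col5a2, -0.76 ± 0.09 for Bgn and 0.80 ± 0.29 for Dcn. With centring on abundant transcripts, Bgn, Dcn and Col5a2 turned in sign at 4 h, and Sparc (1.52), Col3a1 (0.69) and Col6a1 (0.0059) were no longer past the rule either.

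**Figure D5:**
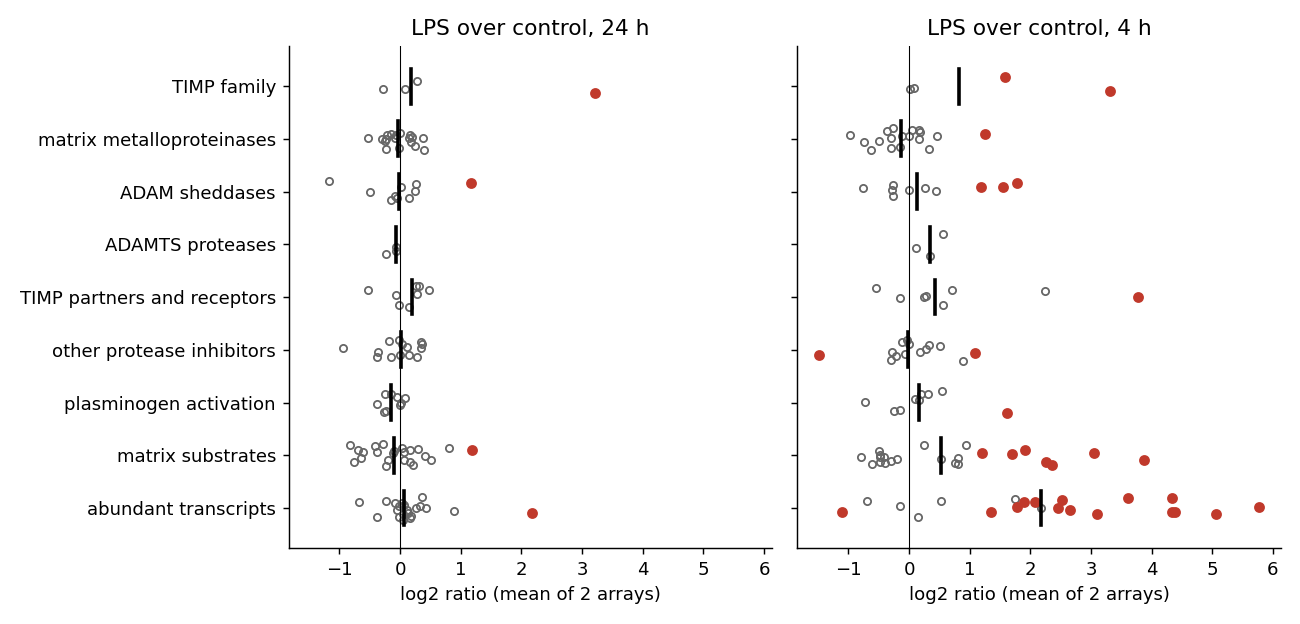
Log2 ratio of LPS over control (horizontal axis, mean of 2 arrays) of the genes of each list (rows) at 24 h (left) and 4 h (right); filled red points passed the 2-fold rule, open points did not, and the black bar is the list's median. At 24 h Timp1 lies apart from all other listed genes, and at 4 h the abundant transcripts have a median of 2.17.

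Cell type markers were set beside these values; as ratios they show no level, so the labelled cell type could not be checked. The median endothelial marker lay at -0.061 (24 h) and 0.033 (4 h), with 0 of 12 past the rule at 24 h and 1 lower at 4 h. This was Cdh5, or VE-cadherin, the adhesion molecule of endothelial junctions, named after its values were seen: its arrays gave -0.17 and 0.051 at 24 h, a mean of -0.059 ± 0.16, and -4.97 and -1.98 at 4 h, a mean of -3.47 ± 2.12. Of 10 leukocyte markers, 1 was higher at 24 h and 0 at 4 h. Of 12 mural and fibroblast markers, 1 was higher at 24 h, and 5 were higher and 1 lower at 4 h. Their part in the 4 h value of Timp3 was not tested. Beside these marker counts, 1.68% of all genes were higher and 0.799% lower at 24 h, and 8.74% and 5.77% at 4 h. The marker calls are relative to the median spot. With centring on abundant transcripts, 49 of all genes were higher and 9975 lower at 4 h. In bulk RNA, a change in the number of cells of a type and a change in RNA per cell cannot be told apart. Over all genes, the middle 95% of means ran from -1.0 to 1.17 at 24 h and from -1.78 to 2.36 at 4 h. Across genes, the arrays of a pair correlated at 0.10 at 24 h and 0.48 at 4 h, with genes not being independent replicates.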

How the data were processed

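The authors' deposited table holds 1 log2 ratio of the 2 dyes per spot and array. The scale was read from the values: they are centred on 0, and their antilogs fall on steps of 0.01 (within 2 hundredths of a step) for 99.96% of spots or more on every array. The scanner and any correction or normalization by the authors are not stated, and the number of arrays limits the precision. Spots were named from the platform annotation; 24344 of 32448 had 1 symbol, 98 several and 8006 none, and only the first kind was used. Each array was centred on its median, reversed arrays were turned in sign, and means were taken over the spots of a gene and then over the 2 arrays of a time, in which an additive dye effect cancels. The calculation was tested on simulated data. Python 3.11.15, numpy 2.4.6 and pandas 2.3.3 were used.

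The members, lists and rules were chosen with earlier results of these data known. Named genes are the 4 members, up to 6 genes of each list past the rule at either time, a fixed set of proteases and partners (Adamts4 and Syn1 were not analysed here), and the 5 genes nearest to Timp1 and to Timp3. The genes of the neighbourhood were chosen later. Alternatives were other scalings and centrings, exact zeros as not measured, the median of spots, other fold rules and leaving out each array; each Timp1 oligonucleotide alone was added after seeing the data.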

Additional observations from a re-analysis of the deposited data

Results flagged for a closer look

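Timp3 lay above 0 on both 4 h arrays and below 0 on both 24 h arrays, with a difference of -3.59 (24 h minus 4 h); the difference between the times was not tested. The same crossing of 0, equally untested, was seen among the named genes for Bgn (-3.02), Aldh1a1 (-3.96), Rbm3 (-3.16) and Bnip2 (-3.44), and at small sizes for Mmp2 (-0.40), Adamts1 (-0.63) and Kdr (-0.31). Over all genes, 729 of 11138 (6.55%) crossed 0 in this direction. Syn3 crossed it the other way, with a difference of 1.61 that rests on the 24 h array with LPS in Cy3, at 2.66, while the other 24 h array gave 0.23.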

How the results depend on the processing

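Timp1 at 24 h stayed past the 2-fold rule under every alternative run, at 2.58 to 4.08, and Timp3 at 24 h stayed between -0.34 and -0.23. At 4 h Timp1 gave 1.23 after quantile normalization, and 1.23 and 1.93 with its first and second oligonucleotide alone. Centring on abundant transcripts, which moved the median of all genes at 4 h to -2.36, changed most: at 4 h Timp1 was -0.78, Timp3 0.95, Timp2 -2.28 and Timp4 -2.34, so 0 TIMP genes were higher and 2 lower. The 24 h minus 4 h differences then were 3.94 for Timp1, 2.51 for Timp2, -1.28 for Timp3 and 2.37 for Timp4, with 3 TIMP genes past the rule upward. It also turned the 4 h sign of Mmp14 (-1.10), Adam15 (-0.58), Adam9 (-0.81), Adam17 (-1.17), Pcolce (-1.28), Anxa2 (-0.75), Bgn (-0.092), Col5a2 (-0.45), Dcn (-0.66), Ifi47 (-0.85), Saa3 (-1.07), Il33 (-0.84), Rsad2 (-1.03) and Usp18 (-0.67). This alternative subtracts 1 constant per array. Quantile normalization put the Timp1 difference at 2.85. Timp4 at 24 h, whose arrays nearly coincided, moved beyond their tiny spread to 0.0934 with arrays scaled to one spread, 0.1035 with quantile normalization, 0.0767 with centring on named spots, 0.0335 on abundant transcripts and 0.0982 with exact zeros left out. With a mean of at least 3-fold, 1 TIMP gene was higher at 4 h.

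Leaving out an array, the Timp1 difference ran from 0.9989 to 2.27, and the TIMP genes past the difference rule upward numbered 0 or 1. The counts over the whole table also moved. At 24 h, 187 higher and 89 lower became 411 and 148 after quantile normalization, 257 and 142 with scaling, 683 and 442 at 1.5-fold, 73 and 15 at 3-fold, 388 and 280 by the mean alone, 159 and 117 with abundant centring, and 771 and 310, or 502 and 818, with 1 array left out. At 4 h, 973 and 643 became 49 and 9975 with abundant centring, 1592 and 1225 at 1.5-fold, 569 and 306 at 3-fold, and 1376 and 1007, or 1476 and 996, with 1 array left out. Between the times, 917 upward and 1113 downward became 9892 and 65 with abundant centring, 1711 and 1819 at 1.5-fold, 378 and 585 at 3-fold, and 1576 and 1405 without the 24 h array with LPS in Cy5. No paired analysis was possible because the labels give no replicate numbers and each time is 1 RNA pair.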

Other observations

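In RefSeq's annotation, 3 of the TIMP genes lie within synapsin genes, which encode proteins of nerve terminals: Timp1 within Syn1, Timp3 within Syn3 and Timp4 within Syn2. Timp2 overlaps Cep295nl. Where such neighbours were measured, none passed the 2-fold rule at either time; with centring on abundant transcripts Syn2 (-3.21) and Syn3 (-2.52) were lower at 4 h. Syn3 lay at 1.45 ± 1.72 (SD, 2 arrays) at 24 h, where Timp3 lay at -0.28, and at -0.16 ± 0.09 at 4 h, where Timp3 lay at 3.31. Syn2 lay at -0.32 ± 0.51 at 24 h and -0.86 ± 1.0 at 4 h, and Cep295nl at -0.11 ± 0.05 and -0.11 ± 0.33. Beside Timp1, the flanking genes Araf, a Raf kinase, and Cfp, the complement factor properdin, lay at -0.15 ± 0.08 and -0.024 ± 0.31 at 24 h and at -0.31 ± 0.48 and -0.37 ± 0.66 at 4 h. These genes were looked up after the TIMP values were known.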
